A study of Rattus norvegicus with 6 samples.

Results

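The nuclear genes for the subunits of the mitochondrial respiratory chain and of the ATP synthase were examined in a rat β-cell model of Prader-Willi syndrome (PWS), a disorder of imprinting in which the paternal copies of a gene domain are lost. Genes were chosen by symbol, with a mean normalized read count of at least 5 over the 6 lines. Symbols for complex I were Nduf with a, b, c, s or v and a number, which leaves out Ndufab1. Those for complex II were Sdha to Sdhd, for complex III Uqcr and Cyc1, and for cytochrome c Cycs. Those for complex IV were Cox4 to Cox8 with an isoform number, which leaves out Cox5a, Cox5b, Cox6c, Cox7b, Cox7c and Cox8a. Those for the ATP synthase began with Atp5. Of 32900 rows in the deposited table, 81 had such a symbol and 76 of these also passed the minimum, out of 15579 genes that did so in all. The 5 under the minimum were Cox4i2, Cox6a2, Cox6b2, Cox7a1 and Cox7b2. The 76 rows carry 73 distinct symbols, because Cox6b1, Ndufv3 and Uqcrb have 2 rows each. Complex I has 39 of them, complex II 4, complex III 10, cytochrome c 1, complex IV 6 and the ATP synthase 16. The rule itself uses symbols and the level of expression, and no difference between lines.

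All lines descend from INS-1(832/13)::mCherry, a rat insulinoma β-cell line that carries a human insulin transgene and a mouse Ins2-C-mCherry reporter, and all were grown in medium with 7.5 mM glucose. The 3 control lines (5-9, 2 and 16) carry a deletion of the PWS domain on the silent maternal allele, and the 3 PWS lines (3, 19-1 and 19-4) carry the deletion on both alleles. Control lines 2 and 16 and all PWS lines were derived from line 5-9, and each is a single clone. Of the PWS lines, 19-1 and 19-4 came from the same parental clone, which leaves 2 independent clones in that group, and the p-values below count them as separate samples. PWS line 3 has a larger deletion at the proximal end. Each line gave 1 library of ribosomal RNA-depleted RNA, with 26016478 to 36084261 counted reads. The paternally expressed Snrpn and Mkrn3, which lie in the domain, had at least 79 reads in every control line and at most 4 in any PWS line. Of 11 β-cell marker genes sought, 10 were found and all of those were expressed, with a summed normalized read count of 490700 to 569900 in control lines and of 259800 to 462500 in PWS lines, whose part in the values below was not tested. Of 7 markers of other islet cells 1 reached the minimum mean of 5, with sums of 5.51 to 27.5 and of 19.1 to 124, and Sst, Ppy, Ghrl and Irx2 had at most 3 reads. Of 5 markers found for fibroblasts, endothelium and immune cells 1 reached it, with sums of 31.3 to 35.8 and of 30.6 to 33.6, and Col1a1, Col3a1, Cdh5 and Ptprc had at most 3 reads. In bulk RNA, fewer cells that express a gene and less of its RNA per cell cannot be told apart.

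In the respiratory chain, complex I and complex II pass electrons from NADH and succinate to ubiquinone, complex III passes them to cytochrome c, and complex IV hands them to oxygen. The proton gradient that complexes I, III and IV build drives the ATP synthase. In β-cells, ATP made this way from glucose closes potassium channels in the plasma membrane and so triggers the release of insulin. Most subunits are encoded in the nucleus, and a few are encoded in mitochondrial DNA.

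Many nuclear genes of the chain have binding sites for nuclear respiratory factor 1 (NRF1) in their promoters, and stretches with such letters are shown because the choice of genes did not use them and they were found in a larger share of member promoters than of all promoters. RefSeq promoters of the GRCr8 build, from 250 bases before to 50 bases after the annotated start, were matched to 66 of the 76 members and gave 64 distinct promoters. The letters GCGCANGCG, searched on both strands with overlapping matches joined, stood in 18 of 64 member promoters (28.1%) and in 6.26% of 27457 RefSeq rat promoters of the same length. The letters AANATGGCG, as bound by YY1, stood in 17 (26.6%) against 3.33%. The letters CCGGAAGT, as bound by GABPA and other ETS factors, stood in 6 (9.38%) against 4.01%. Any of the 3 was found in 36 member promoters (56.2%) and in 12.2% of all. The RefSeq promoters were not matched to those of the members for expression level or base composition. The part of either in these differences was not tested. One stretch with the NRF1 letters in capitals is given from each complex and 2 from complex I, read 5′ to 3′ on the strand of the gene. The Cycs stretch is at chr4:80984907-80984935 on the minus strand, with its capitals from 158 bases before the start. The Sdha stretch is at chr1:30764454-30764482 on the plus strand, and the Uqcrc1 stretch at chr8:118468150-118468178 on the plus strand. The Cox7a2l stretch is at chr6:16936551-16936579 on the plus strand. The Ndufa11 stretch is at chr9:1637507-1637542 on the plus strand and the Ndufs5 stretch at chr5:141264513-141264541 on the minus strand. The Atp5mc2 stretch is at chr7:135678255-135678284 on the minus strand.
Ndufa11: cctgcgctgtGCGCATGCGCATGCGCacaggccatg
Ndufs5: gccgctggctGCGCAGGCGcaaaccgctc
Sdha: cgtttgcagaGCGCAGGCGcaccaccact
Uqcrc1: ttccttacagCGCCTGCGCctcatactcc
Cycs: catgctagccCGCATGCGCgcgcaccttg
Cox7a2l: gtccaaaggaCGCTTGCGCatctgtcata
Atp5mc2: ggctctagtcGCGCATGCGCagagccttct

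Messenger RNA of the respiratory chain subunits differed little between PWS and control lines. None of the 76 members passed an adjusted p of 0.05 in limma, against 0.257% of all genes tested, and the lowest adjusted p of a member was 0.423, for Ndufa1. None passed in edgeR, where 0.205% of all genes did, nor in DESeq2, where 1.46% did. At an unadjusted p under 0.05, 3 members were named by limma, 2 by edgeR and 1 by DESeq2, and in limma the share over all genes was 11.3%. Fold changes on the log2(normalized count + 1) scale ran from -0.30 for Ndufb6 to 0.28 for Ndufs6, and 72 of 76 lay between -0.20 and 0.20.

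The spread between lines set how small a change could be seen. The 95% interval of the fold change lay within 1.2-fold in either direction for 43 of 76 members (56.6%), and for 20.3% of all genes tested. It lay within 1.5-fold for 73 members (96.1%), against 66.3%. A mean of at least 500 normalized reads was reached by 71 of 76 members and by 7798 of all genes, and among the latter the shares were 38.3% and 91.8%. The 3 members whose interval reached past 1.5-fold were Ndufb6, Ndufs6 and Ndufa4l2, the last 2 of which had means of 12.8 and 15.0 and stood just inside the minimum. Cox7a1, a muscle isoform, stood just outside it with a mean of 4.1.

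**Figure D1:**
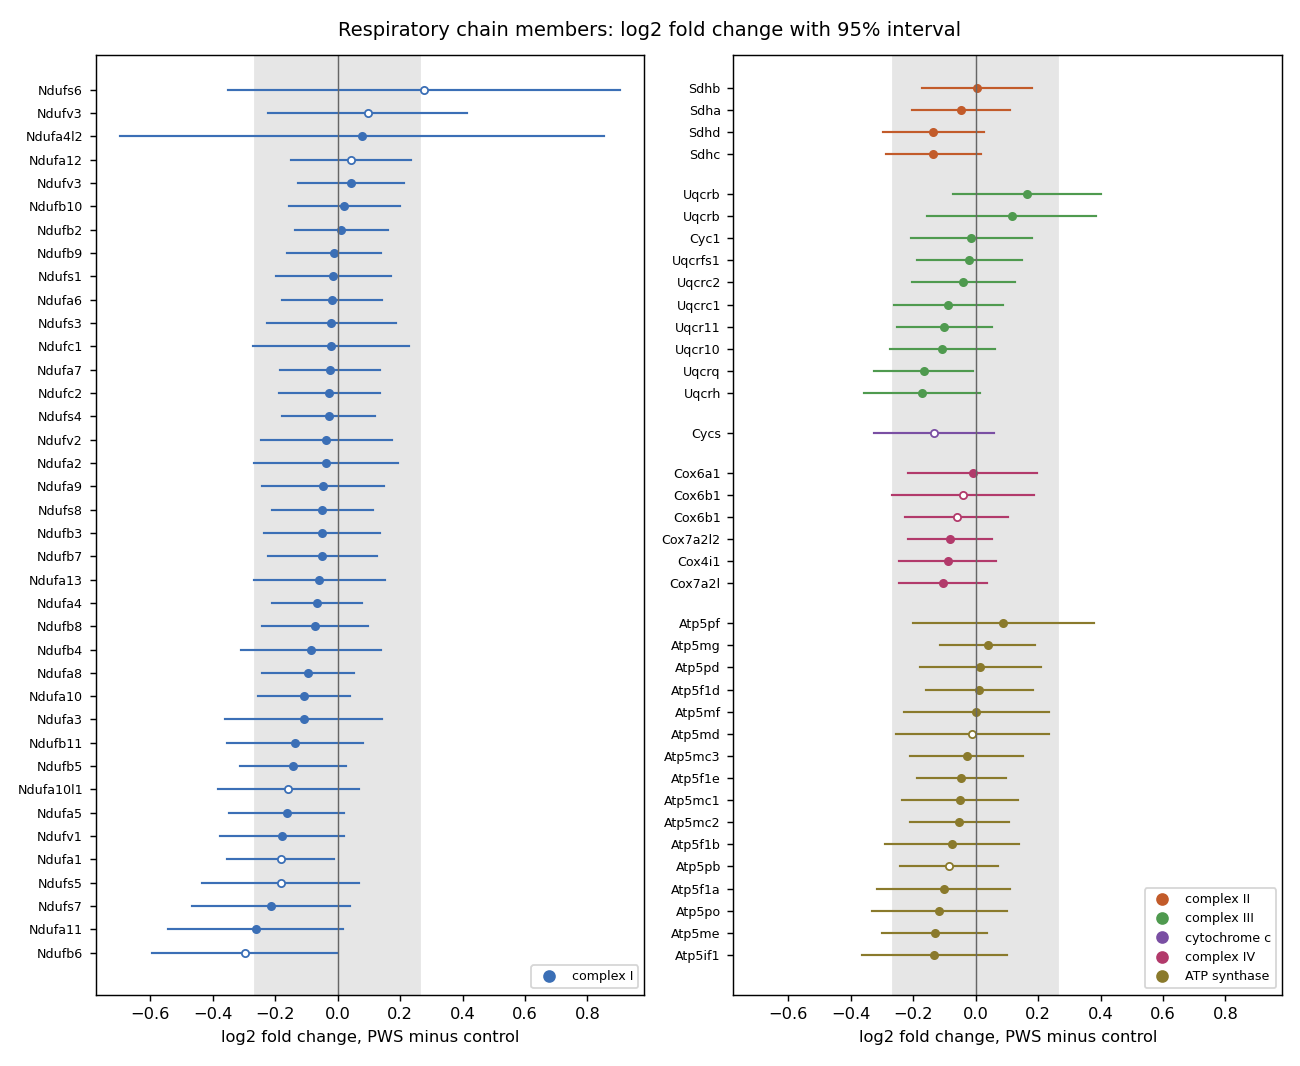
Log2 fold change of 75 of the 76 rows (points) with its 95% interval from limma (lines), by complex, with complex I on the left. Open points mark the 12 rows with under 50% of their reads unique to the gene and the grey band marks 1.2-fold in either direction; most points lie left of 0, and all drawn intervals but those of Ndufb6, Ndufs6 and Ndufa4l2 lie within 1.5-fold.

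Although no member was called, 61 of 76 (80.3%) were lower on average in PWS lines, where 50.7% of all genes were. Their median log2 fold change was -0.05, against -0.0028 for all genes, and 61 were also lower with TMM scaling. The same side was seen in each complex, with medians of -0.05 for complex I (32 of 39 lower), -0.09 for complex II (3 of 4), -0.06 for complex III (8 of 10), -0.07 for complex IV (6 of 6) and -0.05 for the ATP synthase (11 of 16). Summed normalized read counts of all members were 295360 ± 8330 (SD, n = 3) in control lines and 281840 ± 14300 in PWS lines, or 95.4% of control, and the sum over all genes tested was 96.5% of control. As a share of counted reads, members took 0.904% ± 0.0418 in control and 0.894% ± 0.0473 in PWS lines (SD, n = 3), and the groups overlapped. Members whose levels move together are not independent of each other, so these shares carry no test.

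The size of this shift depended on single lines. Set against the control mean, the median member stood at 0.04 on the log2 scale in control line 5-9, at -0.06 in line 2 and at 0.01 in line 16. It stood at -0.03 in PWS line 3, at -0.12 in line 19-1 and at -0.03 in line 19-4, so only line 19-1 was lower than every control line. Line 19-1 was the lowest PWS line for 48 members (63.2%; 33.2% of all genes) and the lowest of all 6 lines for 38 of 76 (19.2% of all genes), and its library was the shallowest. Control line 2 was the lowest control for 52 members (68.4%; 38.5% of all genes), and the highest of all lines for 15 (19.7%; 24.5% of all genes). Without line 19-1 the median was -0.03 and 51 of 76 were lower. Without control line 5-9 it was -0.04 and 53 were lower, and without control line 16 -0.06 and 54. Without control line 2 it was -0.08 and 70 were lower, without PWS line 3 -0.08 and 61, and without PWS line 19-4 -0.08 and 62. Over the 6 fits that left out 1 line, 43 members were lower in each, 4 were higher in each, and 29 (38.2%; 40.4% of all genes) took both signs. The sister subclone 19-4 was not low in the median over all members, but in complex IV its median was -0.13, against -0.10 in line 19-1.

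**Figure D2:**
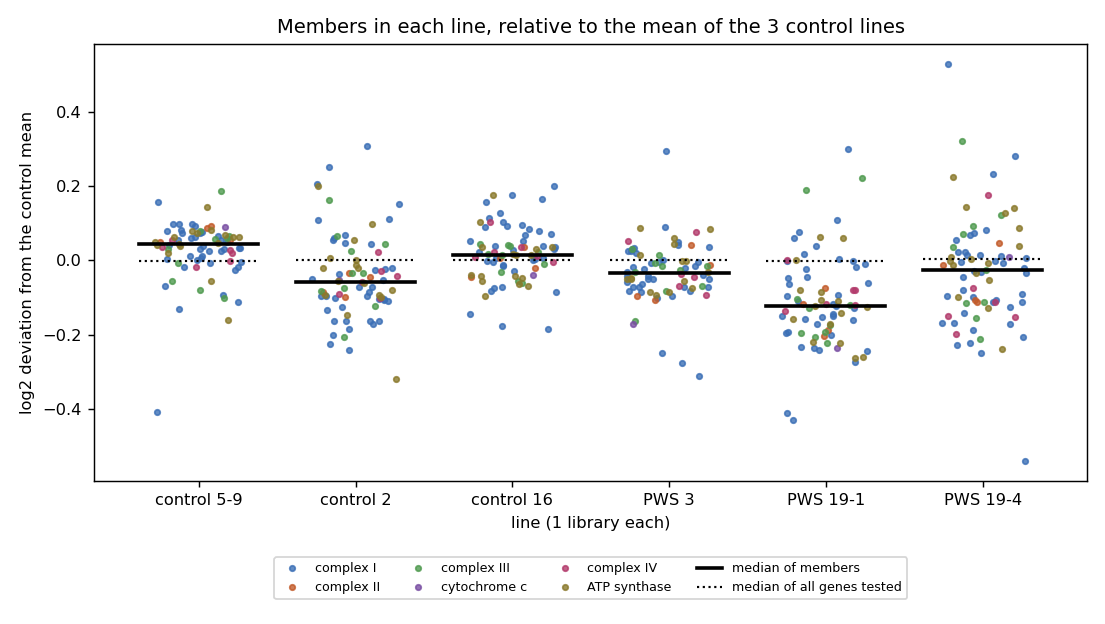
Log2 deviation of each member from the mean of the 3 control lines (vertical axis) in each line (horizontal axis, 1 library each), coloured by complex. Thick bars are the median of the 76 members and dotted bars that of all genes tested; the members' median is lowest in PWS line 19-1 (-0.12) and falls between -0.06 and 0.04 in the other 5 lines.

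In complex I, core subunits of the arm that takes electrons from NADH to ubiquinone had overlapping control and PWS lines. Ndufv1, which binds NADH, had normalized read counts of 3098, 3398 and 2974 in control lines 5-9, 2 and 16 and of 3086, 2609 and 2693 in PWS lines 3, 19-1 and 19-4 (log2 fold change -0.18 ± 0.09, SE). Line 3 lay among the controls and the 2 subclones below them. Ndufs7, which holds the last cluster before ubiquinone, had 838, 930 and 919 in control and 871, 664 and 796 in PWS lines (-0.21 ± 0.11), and was at -0.10 without line 19-1. Closer to 0 lay Ndufs1 at -0.01 ± 0.08, Ndufs3 at -0.02 ± 0.09, Ndufs8 at -0.05 ± 0.07 and Ndufv2 at -0.04 ± 0.09.

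Among the accessory subunits of complex I, which surround the core and help to assemble it, 3 members were lower in all PWS lines than in any control line and 1 was higher. Over all 15579 genes, 9.01% were lower without overlap and 8.43% higher. Ndufa1 had 1587, 1602 and 1477 normalized reads in control and 1467, 1315 and 1331 in PWS lines (-0.18 ± 0.07; limma unadjusted p = 0.0399, adjusted p = 0.423). For Ndufa1 0.0226% of reads were unique, meaning that they were still counted when reads that align to several places or overlap several genes were dropped. It had no value in the table of unique reads, and its log2 fold change was -0.02 (limma adjusted p = 0.991) with RSEM estimates, so its value is uncertain. Ndufb6 had 2013, 2731 and 1950 in control and 1819, 1659 and 1912 in PWS lines (-0.30 ± 0.13; limma unadjusted p = 0.0496, adjusted p = 0.439). Its high value came from control line 2, without which the log2 fold change was -0.14, and 40.6% of its reads were unique. Ndufa10, named after its values were seen, had 1502, 1497 and 1561 against 1432, 1374 and 1426 (-0.11 ± 0.06). Ndufs6 was the member that was higher without overlap, at 11.4, 12.9 and 10.3 against 14.3, 14.3 and 13.6, with at most 15 reads in a line and 20.8% of them unique. The 95% interval of its log2 fold change ran from -0.35 to 0.90.

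Ndufa11, an accessory subunit of the membrane arm, had the lowest log2 fold change of the complex I members with mostly unique reads. It had 2114, 2470 and 2289 normalized reads in control lines and 2141, 2059 and 1572 in PWS lines (-0.26 ± 0.12; adjusted p = 0.468). Line 19-4 was far below its sister subclone here, and PWS line 3 lay above control line 5-9. Without line 19-4 the log2 fold change was -0.12. Ndufs5, shown above for its promoter and named after its values were seen, had 3857, 4815 and 3560 in control against 3400, 3700 and 3594 in PWS lines (-0.18 ± 0.11), with control line 2 again the highest and 49.1% of reads unique. Without that line it was at -0.06.

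In complex II, the enzyme shared with the citric acid cycle, no member was called. The lines overlapped for the 2 catalytic subunits but not for the 2 membrane anchors. Over all genes tested, 9.01% were lower in PWS lines without overlap. Sdha, the flavoprotein, had 4480, 4078 and 4438 normalized reads in control and 4294, 3990 and 4295 in PWS lines (-0.05 ± 0.07), and Sdhb, the iron-sulphur subunit, had 1459 ± 96.6 and 1463 ± 67.6 (SD, n = 3 each). Both overlapped between the groups. Sdhc had 1678, 1579 and 1594 in control and 1501, 1418 and 1495 in PWS lines (-0.14 ± 0.07; adjusted p = 0.491), and Sdhd had 2467, 2250 and 2250 against 2170, 2014 and 2156 (-0.14 ± 0.07; adjusted p = 0.514). For both anchors each PWS line was below each control line, by a gap smaller than the range of the control group. The difference between anchors and catalytic subunits was not tested.

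In complex III, Uqcrq and Uqcrh were lower in each PWS line than in any control line. Uqcrq, a small subunit of the membrane part, had 2455, 2673 and 2537 normalized reads in control and 2410, 2215 and 2207 in PWS lines (-0.17 ± 0.07; limma unadjusted p = 0.0421, adjusted p = 0.428). Uqcrh, the hinge protein next to cytochrome c1, had 3653, 4392 and 3759 in control and 3500, 3433 and 3519 in PWS lines (-0.17 ± 0.08; adjusted p = 0.474). Control line 2 was highest for both, and without it Uqcrh was at -0.09. Cyc1 (cytochrome c1) was at -0.01 ± 0.08, Uqcrfs1 (the Rieske protein) at -0.02 ± 0.07, and the core proteins Uqcrc1 and Uqcrc2 at -0.09 ± 0.08 and -0.04 ± 0.07. Both rows of Uqcrb, a subunit near the ubiquinone site, were above 0, but the row with 64.1% unique reads, at 0.12 ± 0.12, was at -0.02 with unique reads alone. The row with 94.0% unique reads had 1113, 967 and 1087 in control and 1042, 1202 and 1317 in PWS lines (0.17 ± 0.10; adjusted p = 0.584). PWS line 3 lay among the controls and both subclones above them, and the log2 fold change was 0.09 without line 19-4 and 0.26 without line 3.

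Cycs, the mobile carrier between complexes III and IV, had 2524, 2285 and 2305 normalized reads in control and 2103, 2010 and 2383 in PWS lines (-0.13 ± 0.08; adjusted p = 0.585). Line 19-4 lay among the controls. Only 1.05% of its reads were unique, and the sign changed to 0.03 in the tables that counted unique reads or used RSEM estimates.

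In complex IV, all 6 members had a negative log2 fold change. Cox4i1, a nuclear subunit next to the catalytic core, had 4547, 4106 and 4487 normalized reads in control and 4265, 4031 and 4045 in PWS lines (-0.09 ± 0.07; adjusted p = 0.658). Only control line 2 lay within the range of the PWS lines. Cox6a1 was at -0.01 ± 0.09, with line 19-4 the highest of all lines, and the Cox6b1 row with most reads was at -0.06 ± 0.07. Cox7a2l, which joins complexes III and IV into supercomplexes, had 4923, 4766 and 4885 in control and 4705, 4467 and 4379 in PWS lines (-0.11 ± 0.06; adjusted p = 0.559). Its relative Cox7a2l2, named after its values were seen, had 2249, 2316 and 2271 against 2138, 2156 and 2164 (-0.08 ± 0.06). Both separated the groups. Ndufa4, listed with complex I by its symbol but known as a subunit of complex IV, was at -0.07 ± 0.06.

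Over the whole set, 9 members (11.8%) were lower in all PWS lines without overlap and 1 (1.32%) was higher, where 9.01% and 8.43% of all genes were. Of the 9, 3 belong to complex I and 2 each to complexes II, III and IV, and the ATP synthase had none. Of these 10 members, 7 had at least 50% of their reads unique.

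**Figure D3:**
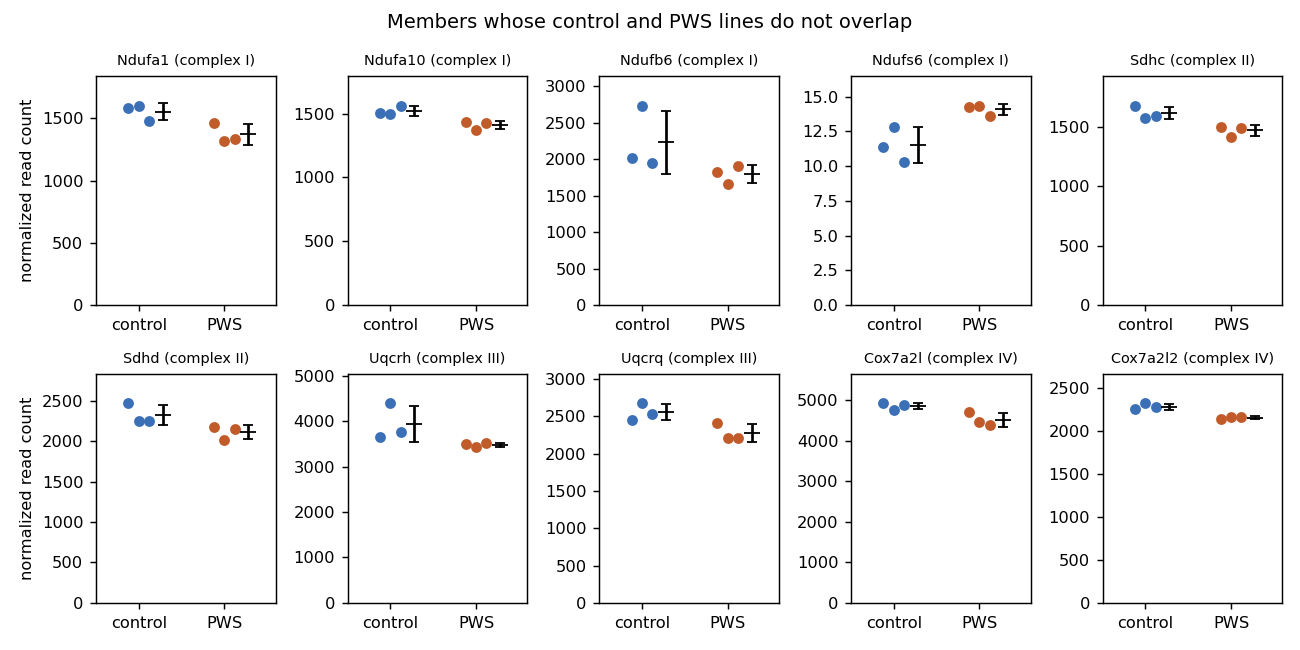
Normalized read counts (vertical axes, from 0) of the 10 members whose 3 control lines (blue) and 3 PWS lines (orange) do not overlap, with 1 point per line and the mean ± SD in black. All but Ndufs6 are lower in PWS lines, and in Ndufb6 and Uqcrh 1 control line (line 2) stands above the rest.

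The ATP synthase had no member that separated the groups. The catalytic β subunit Atp5f1b had 42444, 38869 and 41916 normalized reads in control and 41022, 35172 and 40873 in PWS lines (-0.08 ± 0.09; adjusted p = 0.801), and the α subunit Atp5f1a had 37085, 34498 and 36361 against 34580, 30044 and 36195 (-0.10 ± 0.09). In both, PWS lines 3 and 19-4 lay among the controls and line 19-1 was the lowest. Without it the log2 fold change was -0.0035 for Atp5f1b and -0.02 for Atp5f1a. Atp5pf, coupling factor 6, was the highest of the complex at 0.09 ± 0.13, with control line 2 at 2198 and the other 5 lines between 2863 and 3101. The lowest was Atp5if1, an inhibitor that stops the enzyme from running backwards. It had 3874, 4976 and 4213 in control and 4184, 4020 and 3671 in PWS lines (-0.13 ± 0.10; adjusted p = 0.662), and was at -0.03 without control line 2.

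Isoforms of a subunit were compared as the log2 ratio of normalized count + 1 within a line. The scaling of a library hardly touches this ratio at high counts. At low counts, as for Ndufa4l2, the added 1 makes it depend on the scaling. Of 7 pairs sought, 3 had both genes above the minimum, because Cox4i2, Cox6a2, Cox6b2 and Cox7a1 were under it. Atp5mc1, Atp5mc2 and Atp5mc3 encode the same c subunit of the proton rotor. The ratio of Atp5mc1 to Atp5mc3 differed by -0.02 (PWS minus control) and that of Atp5mc2 to Atp5mc3 also by -0.02, each with an exact permutation p of 0.9. In both pairs line 19-4 gave the lowest ratio. The ratio of Ndufa4l2 to Ndufa4, whose first gene responds to hypoxia in other cells, was -9.19, -8.51 and -8.52 in control and -8.98, -8.60 and -8.21 in PWS lines, a difference of 0.14 (exact permutation p = 0.7). Ndufa4l2 had at most 23 reads in a line. With 3 lines against 3, an exact two-sided test cannot give less than 0.1, and the adjusted p was 0.9 for each pair.

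The genes around the subunits were described from lists of related functions, and none of their members was called by limma or edgeR. Of the 7 subunits whose symbols fall outside the choice above, such as Cox5b, 6 were lower, with a median of -0.10 and a range from -0.19 ± 0.07 (SE; Cox5b, adjusted p = 0.385) to 0.01 (Ndufab1). The 51 assembly factors had a median of -0.03. Sdhaf1, which helps to mature Sdhb, was lowest at -0.52 ± 0.15 (limma adjusted p = 0.309) with 0.0389% unique reads, and Lyrm7, a chaperone of the Rieske protein, highest at 0.25 ± 0.17 (0.12 without control line 2). The 17 carriers and porins had a median of -0.01, with mitochondrial creatine kinase Ckmt1 lowest and lower in each PWS line (1557, 1520 and 1636 against 1384, 1062 and 1206; -0.38 ± 0.10, adjusted p = 0.283) and the glutamate carrier Slc25a22 highest at 0.15 ± 0.08, with 0.0% unique reads.

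Of the 29 regulators of mitochondrial biogenesis, whose median was 0.02, 11 had a lower mean in PWS than in control lines. Ppargc1a, a coactivator of NRF1, was highest at 0.46 ± 0.29 with overlapping lines (140, 91.8 and 206 against 149, 212 and 222) and at 0.17 without control line 2 and 0.75 without control line 16, and Polg2, a subunit of the mitochondrial DNA polymerase, lowest at -0.18 ± 0.17, and at -0.04 without PWS line 19-1, -0.32 without PWS line 19-4 and -0.09 without control line 2. Pprc1, a relative of Ppargc1a named after its values were seen, had 1318, 1367 and 1320 normalized reads in control and 1639, 1757 and 1730 in PWS lines (0.36 ± 0.07), with an adjusted p of 0.164 in limma, 0.13 in edgeR and 0.00681 in DESeq2. Of the 13 mitochondrially encoded subunits 5 were lower, with a median of 0.08. Their log2 fold changes ranged from -0.14 ± 0.16 for Mt-co1 to 0.54 ± 0.16 for Mt-nd4. At an unadjusted p under 0.05 in limma, 6 of them (46.2%) were higher, where 6.0% of all genes were. These were Mt-nd1, Mt-nd2, Mt-nd4, Mt-nd4l, Mt-nd5 and Mt-cyb. Only 3 of the 13 (23.1%) were higher without overlap, where 8.43% of all genes were. The median of the list was 0.14 in control line 16, above PWS lines 3 (0.12) and 19-4 (0.10). Genes whose levels move together are not independent of each other, so these shares carry no test. DESeq2 called Mt-nd4 (adjusted p = 0.0453) and Mt-nd4l (0.0271), where limma gave 0.308 and 0.265, and only 0.647% and 37.7% of their reads were unique. The sum over the 13 genes, most of it Mt-co1, was 95.7% of control.

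**Figure D4:**
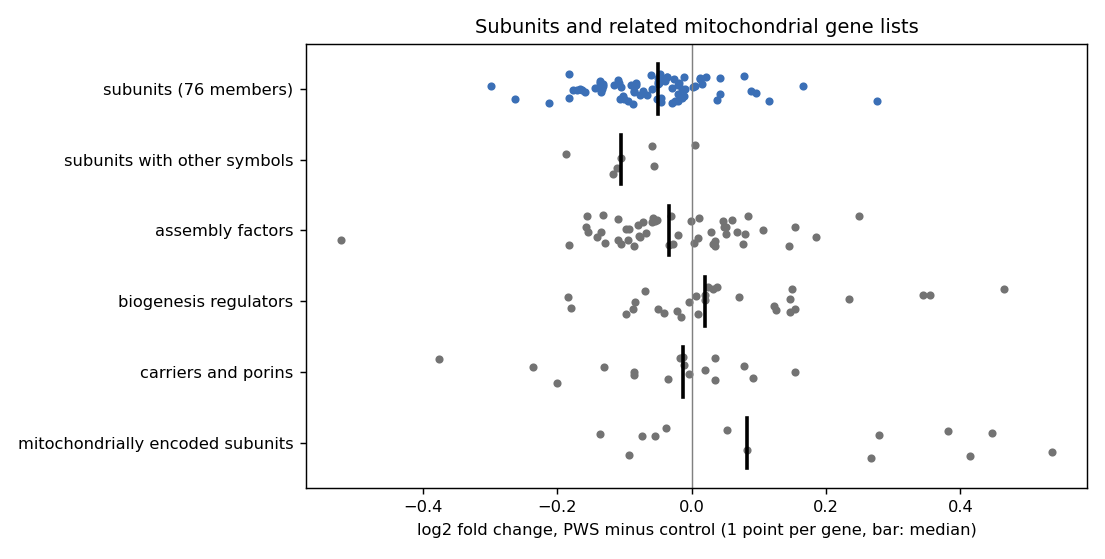
Log2 fold change (PWS minus control, horizontal axis) of each gene in the subunit set and in 5 related lists (rows), with a bar at each median. The subunits span -0.30 to 0.28 around a median of -0.05, and the mitochondrially encoded subunits reach 0.54 around a median of 0.08.

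Over the 66 members with a matched promoter, the median log2 fold change was -0.05 both for the 19 whose promoter held the NRF1 letters and for the 47 others, the 2 rows of Ndufv3 sharing a promoter. It was -0.03 for the 17 with and -0.07 for the 49 without the YY1 letters, and -0.08 for the 6 with and -0.05 for the 60 without the ETS letters. These medians are descriptions of short strings in a 300-base window and carry no test.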

How the data were processed

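RNA-seq libraries of 3 control and 3 PWS lines, 1 per line, were compared. The authors trimmed reads with cutadapt, aligned them with STAR (2.7.0e) to the Ensembl rat genome (v98) with the transgenes added, counted them with HTSeq (0.11.2; nonunique all, which counts a read at each place it aligns and for each gene it overlaps, or nonunique none, which drops such reads) or RSEM (1.3.1), and deposited 3 tables whose values are a signal, namely counts divided by DESeq2 size factors. Columns with the authors' own fold changes and p-values were left unused. Column names gave the group and a number, sample titles gave the line for each, and 0 columns were left without a sample. In the nonunique all table, 100% of values were whole multiples of the value of 1 read (tolerance 0.01), so whole reads were recovered. Reads of the nonunique none table were recovered in the same way. Counted reads per line were 26016478 to 36084261 (nonunique all) and 17530149 to 23022637 (nonunique none).

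The nonunique all table was used unless stated. Genes with a mean of at least 5 were compared by limma (3.58.1; R 4.3.3; lmFit, eBayes with trend) on log2(normalized count + 1), all 6 lines and no covariate, with Benjamini-Hochberg adjustment over 15579 genes and a threshold of 0.05. On recovered reads, edgeR (4.0.16, quasi-likelihood) and DESeq2 (1.42.0) were alternatives, and scripts were tested on simulated data. Reads unique to a gene are those of nonunique none as a share of nonunique all, and 12 members had under 50%. Isoform ratios were compared by an exact two-sided permutation test. Promoters were taken from RefSeq (GRCr8), matched by symbol (65 members) or older symbol (1).

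Members and lists were chosen with earlier results of these data known. Genes named were the core subunits, the highest and lowest member of each complex with at least 50% unique reads, both genes of each isoform pair, the 5 members with the lowest unadjusted p, any member past 0.05 by any tool, and the highest and lowest gene of each related list. The values of 1 core subunit are not reported here. Others are stated as named after their values were seen. The same holds for Ndufs6, the Uqcrb row with fewer reads, Mt-nd1, Mt-nd2, Mt-nd4l, Mt-nd5 and Mt-cyb. Atp5f1c and Cox7a2 were not analysed here, since no row has these symbols. Replicate numbers did not pair the lines.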

Additional observations from a re-analysis of the deposited data

How the results depend on the processing

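No member was called under any of the 20 alternatives, and the members' median log2 fold change stayed negative in each that gave a median, from -0.08 to -0.03 with 1 line left out and from -0.05 to -0.04 otherwise. At an unadjusted p under 0.05, 0 to 6 members passed, with 0 when line 19-1 was left out, when it was averaged with line 19-4, and with the replicate block. Over all genes 40 were called (39 lower, 1 higher), against 228 by DESeq2 (122 lower, 106 higher), 12 in the RSEM table, 16 with nonunique none counting and 9 among genes with a mean of at least 50, which tests fewer genes. DESeq2 called 3 genes of the related lists, where the other alternatives called 0. The cause of these differences was not tested. With the replicate number as a replicate block, 0 members and 36 genes were called. The numbers share no origin. Over genes, the log2 deviations of same-numbered lines from their own group means correlated at 0.003 to 0.047. In these deviations, not every line correlated best with its own number.

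Of the members and related genes named by the rule, 13 changed sign under an alternative, and so did the second Uqcrb row. Cycs was at 0.0256 with RSEM and 0.0335 with nonunique none, Sdhb at -0.0173 with RSEM, the Uqcrb row with fewer reads at -0.0244 with nonunique none, and Ndufa4l2 at -0.263 with nonunique none and -0.00787 with lines 19-1 and 19-4 averaged. With 1 line left out, 62 of 76 log2 fold changes moved by over 1.5 times or changed sign in at least 1 fit. The log2 fold change then ranged from -0.087 to 0.028 for Atp5mc3, from -0.071 to 0.177 for Atp5pf, from -0.103 to 0.053 for Cox6a1, from -0.081 to 0.067 for Cyc1, from -0.148 to 0.273 for Ndufa4l2, from -0.037 to 0.045 for Ndufab1, from -0.062 to 0.038 for Ndufs1, from -0.083 to 0.050 for Ndufs3, from -0.118 to 0.042 for Ndufv2, from -0.045 to 0.051 for Sdhb, from -0.078 to 0.0052 for Uqcrc2 and from -0.067 to 0.021 for Uqcrfs1. The difference in log2 ratio of Ndufa4l2 to Ndufa4 was -0.198 with nonunique none and ran from -0.078 to 0.337 with 1 line left out. That of Atp5mc1 to Atp5mc3 was 0.0107 with the subclones averaged and ran from -0.090 to 0.076, and that of Atp5mc2 to Atp5mc3 ran from -0.050 to 0.025. The depth limits Ndufs6 and Ndufa4l2, with at most 15 and 23 reads in a line.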
